A study of Mus musculus with 6 samples.

Results

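Transcripts of the complement system were followed in an immortalised mouse microglial line, BV2, after knockdown of Gch1, which encodes the rate-limiting enzyme of tetrahydrobiopterin synthesis. The list held 9 genes chosen by symbol: the C1q chain genes C1qa, C1qb and C1qc, the central component C3, properdin (Cfp), the receptors C3ar1, C5ar1 and Itgam, and the regulator Cd55. Of these, 7 were analysed among the 12327 genes of the deposited table, and all 7 were among the 12222 genes tested. C1qa and Cd55 were not analysed here. Expression is given as FPKM, which scales fragments by transcript length and library size, so that levels of different genes can be set side by side.

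The 3 knockdown libraries came from cells infected for 48 hours with an adenovirus that carried a short hairpin against GCH1. The 3 libraries labelled negative control came from the same line, named as an adenoviral control in one text and as wild type in another. From these texts it is unclear whether the control cells received a virus. Both groups were grown in high-glucose medium with fetal bovine serum, and the labels do not tie libraries to cultures of their own, so the p-values below measure the spread between libraries, which may be technical.

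Complement is a cascade of plasma and cell-surface proteins that tags particles and synapses for removal. C1q, a hexamer of heterotrimers built from an A, a B and a C chain, starts the classical pathway. Both this pathway and the alternative pathway, which properdin stabilises, converge on cleavage of C3. The fragments of C3 act on microglia through the anaphylatoxin receptor C3AR1 and through complement receptor 3, the integrin of ITGAM (CD11b) and ITGB2 (CD18). This integrin takes up targets coated with cleaved C3. C5AR1 is the anaphylatoxin receptor for C5a. In the brain, microglia are a main source of C1q and carry complement receptor 3.

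The targeted gene followed the labels in all 6 libraries. Gch1 stood at 6.89, 7.22 and 7.23 FPKM in controls 1 to 3 and at 3.20, 2.93 and 3.43 FPKM in knockdown 1 to 3. It fell to 44.8% of its control mean in FPKM. On the scale of FPKM + 1, used for all fold changes tested, the log2 fold change was -0.96 (SE 0.06, limma Benjamini-Hochberg (BH) adjusted p = 0.00542). Of the 10 microglia and macrophage markers listed, 9 were analysed, led by Cd68 (mean 472 FPKM), Cd14 (82.1 FPKM) and Csf1r (51.3 FPKM), whereas Tmem119 was at 0.583 FPKM, Cx3cr1 was at 0.541 FPKM or less in the knockdown libraries, and P2ry12 was not analysed here. The summed level of these 9 was 694 to 710 FPKM in the controls and 661 to 692 FPKM in the knockdown libraries, with no overlap, but most of it was Cd68 (group means 486 and 457 FPKM), and without Cd68 it was 213 to 219 and 209 to 221 FPKM, with overlap. By gene, 4 were above and 5 below control (median -0.01 on the log2 scale), and 0 passed, against 0.0818% of all genes tested. Aif1 was higher at an unadjusted limma p of 0.0409 (BH adjusted 0.417), the only 1 under 0.05, against 11.3% of all genes. Groups did not overlap for 2 that were lower (Cd68 and Trem2) and 0 that were higher, against 8.36% and 9.99% of all genes. Of the markers of hepatocytes and neutrophils, none of 4 and none of 5 were analysed. Astrocytes, neurons, oligodendrocytes, lymphocytes and fibroblasts had 1 each (Aldoc, Syn1, Cnp, Lck and Acta2, at means of 26.3, 2.11, 5.28, 0.843 and 0.513 FPKM). Endothelial cells had 2 (Vwf at 4.73 FPKM and Flt1 at 22.2 FPKM). Estimated depth was 5.25 to 5.58 Gb of aligned sequence in the controls and 6.32 to 7.61 Gb in the knockdown libraries, also without overlap. The part of the marker level and of depth in the comparisons below was not tested.

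None of the 7 complement genes changed past the threshold. The count of members with a limma BH adjusted p under 0.05 was 0 of 7, against 0.0818% of all genes tested. The count at an unadjusted p under 0.05 was also 0 of 7, against 11.3% of all genes (6.47% higher and 4.82% lower in the knockdown). Groups did not overlap for 1 of 7, which was lower, against 18.4% of all genes (9.99% higher and 8.36% lower). The members were 5 below and 2 above control, and their median log2 fold change was -0.09, beside 0.01 over all genes tested. C3 and C3ar1 were measured tightly and had intervals of 0.91 to 1.05 and 0.97 to 1.10 times control, while C5ar1 and Itgam varied several-fold between libraries of the same group. In bulk RNA of this kind, fewer cells of a type and less RNA per cell cannot be told apart.

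**Figure D1:**
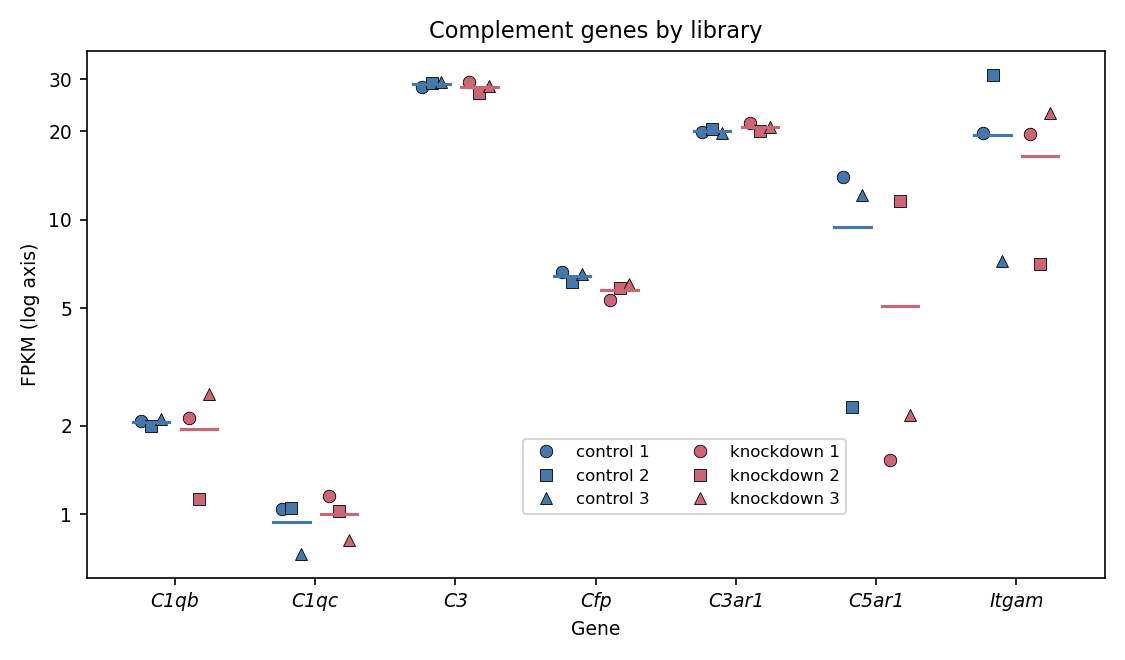
FPKM (log axis) of the 7 complement genes in the 3 control and 3 knockdown libraries; symbols mark the library number and horizontal lines the group means. C3 and C3ar1 stay within 26.9 to 29.3 and 19.7 to 21.3 FPKM, whereas C5ar1 spans 2.32 to 14.0 FPKM in the controls and 1.53 to 11.6 FPKM in the knockdown libraries, and Itgam 7.22 to 31.1 and 7.10 to 23.0 FPKM.

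By level, C3 was the highest member on average (mean over the 6 libraries 28.5 FPKM, above 89.0% of the genes in the table). C3ar1 followed at 20.3 FPKM (above 83.0%) and Itgam at 17.9 FPKM (79.9%). The rank and range of Itgam are uncertain, since it shares exons with a second gene model, Gm49368, described below. Summed with that model it was at 52.7 to 57.7 FPKM. C5ar1 was at 7.29 FPKM (54.6%) and Cfp at 6.10 FPKM (48.8%), close to the middle of the table. The C1q chains were the lowest, C1qb at 2 FPKM (20.1%) and C1qc at 0.970 FPKM (8.47%). The ranges over libraries of C3 and C3ar1 did not overlap, nor did those of Cfp and C1qb. The range of Itgam overlapped those of C3, C3ar1 and C5ar1 but lay above that of Cfp, that of C5ar1 also overlapped those of Cfp and C1qb, and C1qb and C1qc overlapped narrowly at 1.13 and 1.15 FPKM.

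C1qb encodes the B chain of C1q (ENSMUSG00000036905.8; GRCm38 chromosome 4, 136880129 to 136886187, minus strand) and has 1 annotated transcript, of 1088 bases. Its values were 2.07, 2 and 2.10 FPKM in controls 1 to 3 and 2.13, 1.13 and 2.57 FPKM in knockdown 1 to 3. The controls were nearly equal, and the knockdown libraries lay on both sides of them, with knockdown library 2 the lowest and knockdown library 3 the highest of all 6. The log2 fold change was -0.09 (SE 0.18, 95% interval -0.50 to 0.33, limma BH adjusted p = 0.87). Without knockdown library 2 it was 0.13.

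C1qc encodes the C chain (ENSMUSG00000036896.5; chromosome 4, 136889804 to 136893065, minus strand), and its gene lies 3616 bases from C1qb on the same strand. It was at 1.04, 1.05 and 0.734 FPKM in controls 1 to 3 and 1.15, 1.03 and 0.818 FPKM in knockdown 1 to 3. In each group the third library was the lowest, and the groups overlapped (log2 fold change 0.04, 95% interval -0.18 to 0.27, limma BH adjusted p = 0.886). Its sign turned, to -0.04 and -0.01, without control library 3 and without knockdown library 1. Per length, C1qb stood above C1qc in each library, from 1.09 times in knockdown library 2 to 3.14 times in knockdown library 3. The log2 ratio of C1qb to C1qc was 1.15 ± 0.32 in the controls and 0.89 ± 0.76 in the knockdown libraries (SD, n = 3 each; two-sided exact permutation p = 0.7, BH adjusted over the 4 ratios tested 0.9). The difference of -0.26 turned to 0.12 without knockdown library 2 and was -0.64 without knockdown library 3. The smallest p that 3 against 3 libraries can give is 0.1. These low levels rest on a mean coverage per base, estimated from FPKM and aligned sequence, of 7.72 to 16.2 for C1qb and 4.05 to 8.74 for C1qc.

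C3 encodes the component on which the pathways converge (ENSMUSG00000024164.15; chromosome 17, 57203970 to 57228136, minus strand). It was at 28.2, 29.2 and 29.3 FPKM in controls 1 to 3 and 29.3, 26.9 and 28.5 FPKM in knockdown 1 to 3. The groups overlapped and the means, 28.9 ± 0.612 and 28.2 ± 1.25 FPKM (SD, n = 3 each), differed by less than the SD of the knockdown libraries. The log2 fold change was -0.03 (SE 0.04), and its 95% interval of -0.14 to 0.07 corresponds to 0.91 to 1.05 times control on the scale of FPKM + 1. Estimated coverage was 153 to 223 per base, and without knockdown library 2 the log2 fold change was 0.00.

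Cfp, on the X chromosome (ENSMUSG00000001128.7; 20925454 to 20931555, minus strand), encodes properdin, the positive regulator that stabilises the alternative pathway convertase. It was at 6.64, 6.13 and 6.54 FPKM in controls 1 to 3 and 5.35, 5.87 and 6.07 FPKM in knockdown 1 to 3. Each knockdown library lay below each control, as in 8.36% of all genes tested in that direction, and Cfp was the only member whose groups did not overlap. Its mean was 89.5% of control (6.44 ± 0.268 and 5.76 ± 0.371 FPKM, SD, n = 3 each), and the log2 fold change of FPKM + 1 was -0.14 (SE 0.06, 95% interval -0.28 to 0.00). It did not pass over all genes (limma BH adjusted p = 0.456, unadjusted 0.0539). Over the fits that each lacked 1 library, the log2 fold change of Cfp was -0.17 to -0.09, with limma BH adjusted p of 0.354 to 0.711. The value nearest 0 came without knockdown library 1, the lowest of the 6. The ratio of C3 to Cfp was 4.24, 4.75 and 4.48 in the controls and 5.47, 4.57 and 4.70 in the knockdown libraries, with overlap (two-sided exact permutation p = 0.3, BH adjusted 0.6).

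C3ar1, the receptor for the anaphylatoxin C3a (ENSMUSG00000040552.8; chromosome 6, 122847138 to 122856161, minus strand), was measured as tightly as C3. It was at 19.9, 20.4 and 19.7 FPKM in controls 1 to 3 and 21.3, 20.1 and 20.7 FPKM in knockdown 1 to 3. The highest control exceeded the lowest knockdown library, so the groups overlapped. The log2 fold change was 0.05 (SE 0.04, 95% interval -0.04 to 0.14, limma BH adjusted p = 0.645), that is 0.97 to 1.10 times control on the scale of FPKM + 1.

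C5ar1, the receptor for C5a (ENSMUSG00000049130.6; chromosome 7, 16246743 to 16259540, minus strand), varied far more between libraries than between groups. It was at 14.0, 2.32 and 12.1 FPKM in controls 1 to 3 and 1.53, 11.6 and 2.17 FPKM in knockdown 1 to 3. The values fell at 2 levels, a high one in controls 1 and 3 and knockdown 2 and a low one in control 2 and knockdown 1 and 3, with each level present in each group. The highest library exceeded the lowest by 6.01 times within the controls and by 7.61 times within the knockdown libraries. The group means of 9.47 ± 6.26 and 5.10 ± 5.65 FPKM (SD, n = 3 each) differed by a log2 fold change of -0.90 with an SE of 0.75 and a 95% interval of -2.67 to 0.88 (limma BH adjusted p = 0.673). Leaving out 1 library moved the fold change to between -1.62 (without knockdown library 2, limma BH adjusted p = 0.537) and -0.46 (without knockdown library 1). The interval of C5ar1, 0.16 to 1.84 times control on the scale of FPKM + 1, holds a fall of several-fold, no change and a rise. These could not be told apart with these libraries.

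The annotation of C5ar1 holds 3 transcripts, of 2481, 2540 and 674 bases, and the short one has 0 bases outside the exons of the first. The table gives 1 value per gene, so the share of each transcript in a library was not analysed here and its part in the 2 levels of C5ar1 was not tested. The ratio of C3ar1 to C5ar1 was 1.42, 8.77 and 1.62 in the controls and 13.9, 1.73 and 9.53 in the knockdown libraries (two-sided exact permutation p = 0.2, BH adjusted 0.6). The difference of their log2 ratio was 1.17, and 0.58 (without knockdown library 1) to 2.08 (without knockdown library 2) with 1 library left out.

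Itgam, the alpha chain of complement receptor 3 (ENSMUSG00000030786.18; chromosome 7, 128062640 to 128118491, plus strand), was the other member with wide spread. It was at 19.7, 31.1 and 7.22 FPKM in controls 1 to 3 and 19.5, 7.10 and 23.0 FPKM in knockdown 1 to 3. Control 3 and knockdown 2 were low, control 2 was the highest, and the groups overlapped fully (log2 fold change -0.15, SE 0.57, 95% interval -1.49 to 1.19, limma BH adjusted p = 0.937). The sign turned, to 0.28 and 0.33, without control library 2 and without knockdown library 2. Of 7079 genes with a mean of at least 5 FPKM, 39 (0.551%) spread by at least 2-fold within both groups and 15 by at least 3-fold. Both C5ar1 and Itgam were among these 15, out of 5 members at that level, and the median spread of the 7079 genes was 1.10-fold in the controls and 1.08-fold in the knockdown libraries.

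A second gene model shares the exons of Itgam. Gm49368 (ENSMUSG00000108596.1; chromosome 7, 128062683 to 128128160, plus strand) is annotated as protein-coding on the same strand and begins 43 bases inside Itgam. The first-numbered transcripts of Itgam and Gm49368 have 30 exons each, of which 27 have the same start and end. They share 3450 exonic bases, 73.7% of Itgam and 71.8% of Gm49368. They part at the last exon, at 128117306 to 128118491 for Itgam and 128126808 to 128128160 for Gm49368. Before it, they differ at the start of the first exon and at the start of an inner exon. That inner exon starts 38.994 kb from the start of Itgam in Itgam and 38.997 kb from it in Gm49368. Of the other analysed members, only C3 overlapped an annotated gene, the microRNA gene Mir6978.

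**Figure D2:**
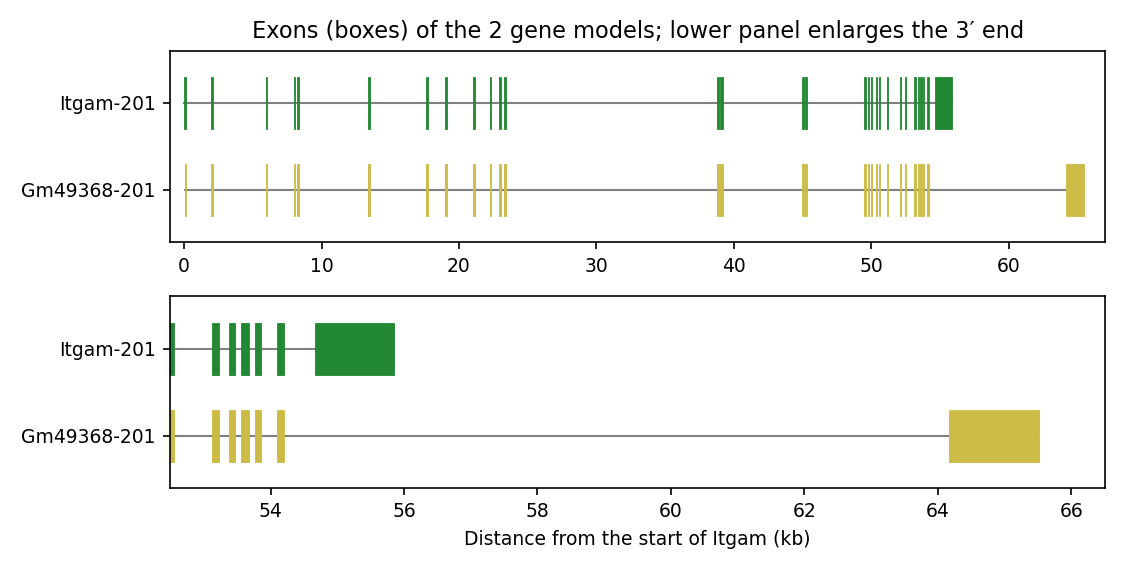
Exons of Itgam and Gm49368 by distance from the start of Itgam in kb, with the 3′ end enlarged in the lower panel. The models coincide along 27 exons and end in different last exons.

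The point where the models part is shown because reads across it, or in the last exons, tell the transcripts apart. Reads over the differing starts of the first and the inner exon can do so too. Each line gives the last 30 bases of the shared exon (128116817 to 128116846) in lower case and the first 30 bases of the model's own last exon in capitals, both coding, 5′ to 3′ on the plus strand, from the GENCODE M21 transcripts (GRCm38).
Itgam: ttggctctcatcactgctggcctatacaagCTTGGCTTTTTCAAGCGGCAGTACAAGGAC
Gm49368: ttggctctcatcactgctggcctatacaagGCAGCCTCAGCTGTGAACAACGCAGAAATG

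The region upstream of both models is shown because their annotated starts, 128062640 and 128062683, lie next to the same bases. It is the 250 bases before the start of Itgam, from RefSeq (GRCm38.p6, chr7:128062390-128062639, plus strand), with the capitals marking GAGGAA or its reverse complement TTCCTC, a core motif recognised by the myeloid transcription factor PU.1.
Itgam upstream: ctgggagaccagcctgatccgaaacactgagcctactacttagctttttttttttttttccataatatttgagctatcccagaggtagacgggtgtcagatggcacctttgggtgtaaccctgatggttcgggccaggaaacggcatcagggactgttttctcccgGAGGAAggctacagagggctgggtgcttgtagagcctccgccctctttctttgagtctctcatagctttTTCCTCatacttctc
The motif, searched on both strands, occurs 2 times there. It was found in 3 of the 7 members' upstream regions (C1qb, C1qc and Itgam) and in 23.3% of 32851 upstream regions of the same length. A match is a description of the letters, not of binding.

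Gm49368 was high where Itgam was low, and the sum of the pair was nearly constant. Gm49368 was at 35.8, 23.2 and 48.8 FPKM in controls 1 to 3 and 38.3, 45.6 and 32.2 FPKM in knockdown 1 to 3. Its highest values fell in control 3 and knockdown 2, the low libraries of Itgam, and its lowest in control 2, the highest of Itgam. The sum of Itgam and Gm49368 was 55.5, 54.4 and 56.0 FPKM in controls 1 to 3 and 57.7, 52.7 and 55.2 FPKM in knockdown 1 to 3. The highest sum exceeded the lowest by 1.10 times, against 4.39 times for Itgam alone. Itgam made up 35.5%, 57.3% and 12.9% of the sum in the controls and 33.7%, 13.5% and 41.7% in the knockdown libraries, with overlap (two-sided exact permutation p = 0.8).

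With the pair summed as 1 row, an alternative chosen after seeing the data, the log2 fold change of Itgam was 0.00 with an SE of 0.04 and a 95% interval of -0.10 to 0.10 (limma BH adjusted p = 0.981). The group means of the sum were 55.3 ± 0.856 and 55.2 ± 2.54 FPKM (SD, n = 3 each). Itgb2, the beta chain of the same receptor, was at 44.2, 45.8 and 49.0 FPKM in controls 1 to 3 and 46.8, 42.9 and 45.4 FPKM in knockdown 1 to 3 (log2 fold change -0.04, 95% interval -0.16 to 0.08, limma BH adjusted p = 0.794). Per length, the ratio of Itgam alone to Itgb2 ranged from 0.147 to 0.681 (two-sided exact permutation p = 0.9, BH adjusted 0.9), whereas the ratio of the summed pair to Itgb2 was 1.14 to 1.25 in the controls and 1.22 to 1.23 in the knockdown libraries. How the authors' quantification divided reads between the models was not tested, and Itgam alone is therefore an uncertain measure of this gene.

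**Figure D3:**
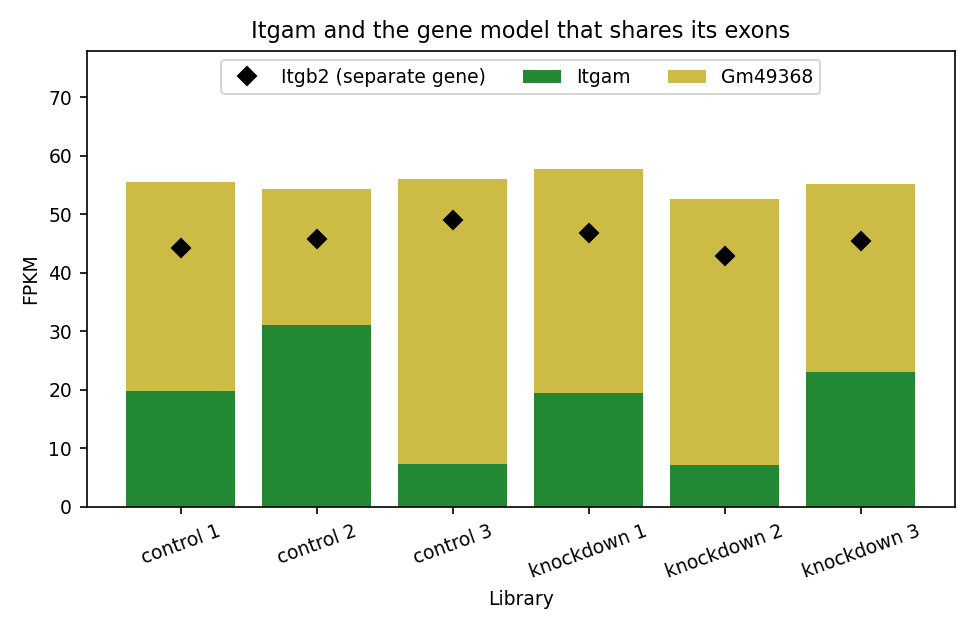
FPKM of Itgam (lower bar part) and Gm49368 (upper part) stacked by library, with Itgb2 as diamonds. The stacked height stays between 52.7 and 57.7 FPKM while the Itgam part runs from 7.10 to 31.1 FPKM.

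The rest of the complement system showed no called change. In 9 lists holding 63 complement genes with the members, 26 genes were analysed and 25 tested, of which 0 passed a limma BH adjusted p of 0.05 in either direction (0.0818% of all genes did) and 0 had an unadjusted p under 0.05 (11.3% of all genes). Their median log2 fold change was -0.01, beside 0.01 over all genes tested, with 11 above and 14 below control. Without the members, 9 were above and 9 below, with a median of 0.01.

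Among other components of the classical and lectin pathways, 6 of 16 were analysed and 5 tested. The collectin scavenger receptor Colec12 was at 103 ± 4.85 FPKM in control and 107 ± 5.26 FPKM in knockdown libraries (SD, n = 3 each, log2 fold change 0.06). The ficolin gene Fcna had a log2 fold change of -0.01, the C1 protease gene C1ra -0.05 and C4b, which encodes component C4, 0.08. Of the terminal pathway, C8g alone of 7 genes was analysed, at a mean of 0.772 FPKM (log2 fold change 0.04).

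Among membrane regulators, 3 of 10 were analysed. Cd59a, an inhibitor of the membrane attack complex, was at 2.06, 2.20 and 1.15 FPKM in controls 1 to 3 and 1.45, 1.17 and 1.28 FPKM in knockdown 1 to 3, a log2 fold change of -0.27 with a 95% interval of -0.62 to 0.09 (limma BH adjusted p = 0.531). Control 3 lay below all knockdown libraries. Cr1l, the rodent C3 convertase inhibitor Crry, was at 2.28, 2.10 and 1.98 FPKM in controls 1 to 3 and 2.48, 2.58 and 2.21 FPKM in knockdown 1 to 3 (log2 fold change 0.13, 95% interval -0.03 to 0.29, limma BH adjusted p = 0.509). Cd46 was at a mean of 0.489 FPKM. Among soluble regulators, clusterin (Clu) was at a mean of 28.8 FPKM, with a log2 fold change of -0.04.

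Itgax, the alpha chain of complement receptor 4, was at 52.0, 51.7 and 48.7 FPKM in controls 1 to 3 and 60.6, 50.4 and 54.7 FPKM in knockdown 1 to 3, with overlap (log2 fold change 0.12, 95% interval -0.04 to 0.28, limma BH adjusted p = 0.543). Of 7 receptors and binding partners of C1q, 5 were analysed. Calreticulin (Calr) had means of 198 FPKM (control) and 208 FPKM (knockdown), the endocytic receptor Lrp1 a mean of 76.5 FPKM, Cd93 75.5 FPKM and C1qbp 64.5 FPKM, with log2 fold changes of 0.07, -0.08, 0.08 and 0.03.

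**Figure D4:**
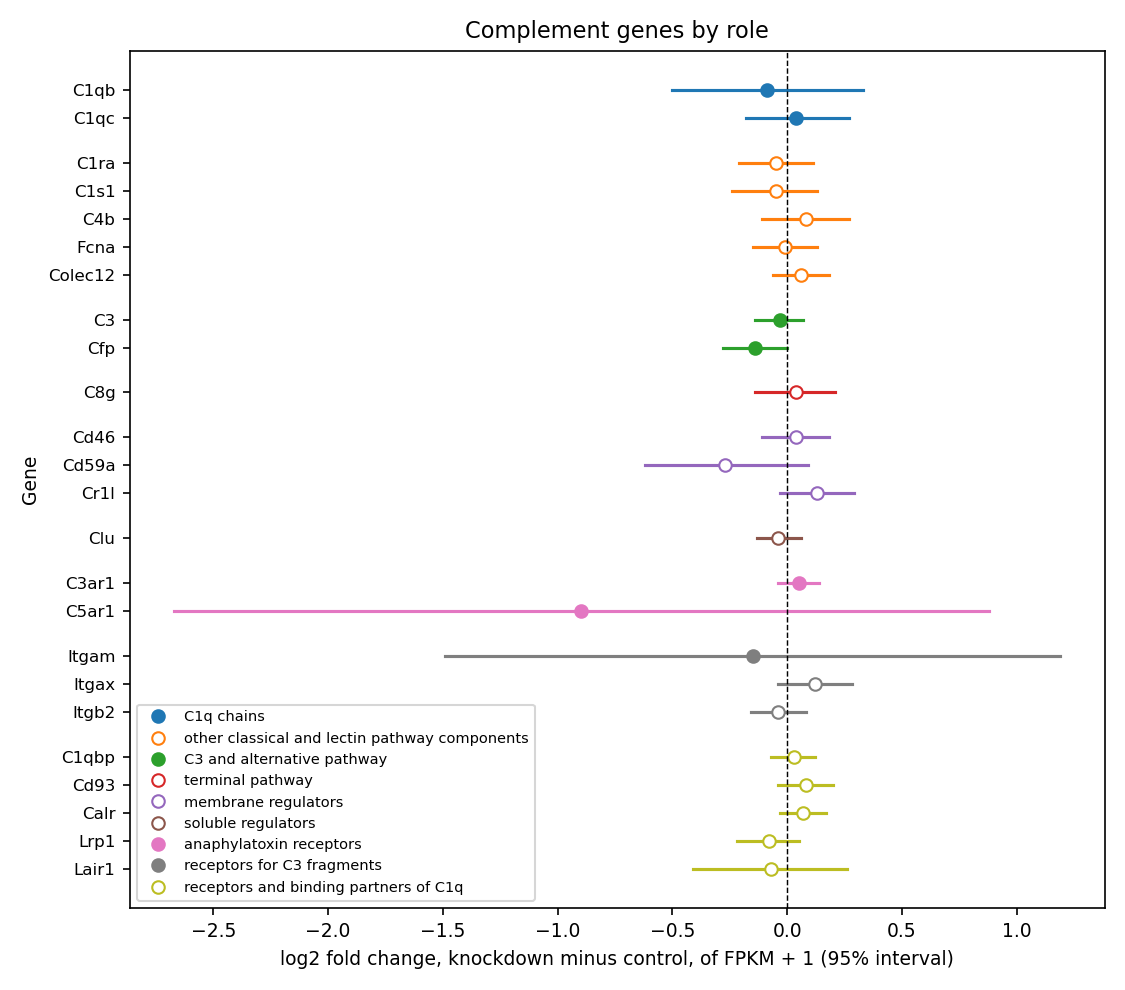
Log2 fold change of FPKM + 1, knockdown minus control, with its 95% limma interval for complement genes tested, coloured by role; filled points are the members. Each interval shown reaches 0, and those of C5ar1 (-2.67 to 0.88) and Itgam (-1.49 to 1.19) are the widest.

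Genes that act with these receptors were analysed in full. Of 10 signalling partners of complement receptor 3, 0 passed, against 0.0818% of all genes tested. The 3 with an unadjusted limma p under 0.05, against 11.3% of all genes, were Hcst and Cyth1 above control (log2 fold change 0.38 and 0.26) and Rac2 below (-0.11). Their limma BH adjusted p were 0.307, 0.353 and 0.373. Groups did not overlap for 6 of the 10 (2 higher and 4 lower), against 18.4% of all genes. The 4 most abundant were the adaptor Tyrobp (DAP12; mean 262 FPKM, log2 fold change -0.03), Plcg2 (88.5 FPKM, -0.05), the small GTPase Rac2 (80.4 FPKM) and talin (Tln1; 79.3 FPKM, -0.08). Of 10 partners of the anaphylatoxin receptors, 0 passed, against 0.0818% of all genes. An unadjusted limma p under 0.05 was found for 1 of them, the G protein subunit Gnb1, against 11.3% of all genes. Gnb1 was at a mean of 77.8 FPKM (log2 fold change -0.10, limma BH adjusted p = 0.359). It was also the only 1 of the 10 whose groups did not overlap, against 18.4% of all genes. Arrb2, Gnai2 and Gnai3 had log2 fold changes of -0.08, -0.05 and 0.03.

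Of 10 myeloid transcription factors, 0 passed, against 0.0818% of all genes. Cebpb was the only 1 of the 10 with an unadjusted limma p under 0.05 (0.00435), against 11.3% of all genes. The groups did not overlap for 3 (1 higher and 2 lower), against 18.4% of all genes (9.99% and 8.36%). Cebpb, a factor of inflammatory gene expression, was at 105, 109 and 107 FPKM in controls 1 to 3 and 89.0, 95.7 and 98.0 FPKM in knockdown 1 to 3 (log2 fold change -0.18, 95% interval -0.29 to -0.08, limma BH adjusted p = 0.291), 1 of the 2 that were lower without overlap. Spi1, which encodes PU.1, was at 40.8, 40.9 and 44.0 FPKM in controls 1 to 3 and 41.3, 40.0 and 43.1 FPKM in knockdown 1 to 3 (log2 fold change -0.01, 95% interval -0.12 to 0.10). Rela, a subunit of NF-kB, had a log2 fold change of 0.02.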

How the data were processed

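Per the labels' protocols, ribosomal RNA was removed and 6 libraries were made with a kit that keeps strand. The deposited values, 1 for each gene in each library, carry no stated unit. They were taken as FPKM made by the authors, from 898 to 970 weakly expressed genes of each library with 1 annotated transcript each. In these, 71.8% to 75.2% of value times length lay within 0.1 of a whole number of aligned bases. The depth of each library was the one in a scan at which these same genes fell most regularly on whole numbers. For a depth set beforehand the share by chance is 20%, and that after such a scan was not estimated. HISAT2, StringTie and edgeR are named, per the submitters' processing notes, with the build hg38, although all identifiers are mouse. What each tool did, with which annotation and strand option, is not given in the sources used here. In each gene of the table the higher group mean is at least 0.501 FPKM.

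Symbols and coordinates came from GENCODE M21 (GRCm38), which matched 12306 of 12327 identifiers without version. Genes that reached 0.5 FPKM in 3 or more libraries were tested with limma 3.58.1 (R 4.3.3, mean-variance trend, no covariate) on log2(FPKM + 1), with BH adjustment over 12222 genes and a threshold of 0.05; the pseudocount of 1 understates changes of low genes. Intervals are 95%. Ratios were compared by exact permutation over libraries; those with C1qa were not run. The limma script was tested on simulated data. Named genes are the members, Gch1, Itgb2 and up to 4 genes per list with the highest mean, some of which are not reported here; Gm49368, Hcst, Cyth1 and the named markers of cell types were added after their values were seen. Members and lists were chosen with earlier results of these data known. Alternatives were a replicate block, each library left out, other filters, pseudocounts of 0.1 and 0.5, other scaling, other moderation, and removal of a GC and length trend (loess span 0.3). Python 3.11.15 was used for the rest.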

Additional observations from a re-analysis of the deposited data

How the results depend on the processing

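No complement member passed in any of the fits tried, a count of 0 with each (limma; at an unadjusted p under 0.05 there was at most 1 member, Cfp or C5ar1). Of 124 comparisons of a member with its reported fold change, 118 kept the direction and 6 turned it. Part of the 118 could not turn, since the replicate block, other filters and other moderation leave a member's log2 fold change as it was. Summing Itgam and Gm49368 likewise leaves that of each other member as it was. All 6 turns came with a library left out. In those fits C1qb ranged from -0.24 to 0.13, C1qc from -0.04 to 0.11, C3 from -0.06 to 0.00 and Itgam from -0.70 to 0.33 on the log2 scale. The filter at a mean of 5 FPKM leaves out C1qb and C1qc. Among all genes, 6 to 18 genes passed with a library left out, against 10 as reported (18 without control library 2, 6 without knockdown library 2 or 3), and the cause was not tested. With the replicate block 0 genes passed (1330 at an unadjusted p under 0.05), and Gch1, at -0.96, had a limma BH adjusted p of 0.0604. With the block and the GC and length trend removed, 0 passed (1421 unadjusted) and Gch1 was at -0.97 (limma BH adjusted p = 0.0691). Over its alternatives without a block the adjusted p of Gch1 was at most 0.0289. Residuals of libraries that share a number had correlations of 0.095, 0.059 and 0.094. For each library its own number gave the highest value, a hint that comes from the values alone. With none above 0.1, the numbers were not taken as a pairing. With 1 library left out, the difference in log2 ratio ranged from -0.64 to 0.12 for C1qb to C1qc, from -0.75 to 0.37 for Itgam to Itgb2 (above 0 without control library 1 or 2 or knockdown library 2) and from 0.05 to 0.18 for C3 to Cfp. Coverage was lowest for C1qc and C1qb among the members.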

Other observations

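The arrestin gene Arrb1, which regulates receptors coupled to G proteins, also fell at separate levels that did not follow the groups. It was at 11.3, 4.64 and 4.54 FPKM in the controls and 4.92, 11.4 and 11.8 FPKM in the knockdown libraries (log2 fold change 0.43, 95% interval -0.50 to 1.36, limma BH adjusted p = 0.702). Its high libraries were control 1 and knockdown 2 and 3, and those of C5ar1 were controls 1 and 3 and knockdown 2. Control 1 and knockdown 2 were thus high for both genes, whereas control 3 and knockdown 3 were each high for only 1 of them. Arrb1 was singled out after its values were seen.

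C1rb, a second C1r gene of the mouse, was listed at 0 in control 1 and knockdown 1 and was at 2.01 and 0.347 FPKM in the other controls and 0.421 and 1.58 FPKM in the other knockdown libraries. It missed the filter and was not tested. The fractalkine receptor Cx3cr1 was at 0.597, 0.3 and 3.16 FPKM in the controls, so that control library 3 alone sets its control mean of 1.35 FPKM, beside 0.483 FPKM in the knockdown libraries (limma BH adjusted p = 0.672). Both were singled out after their values were seen.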
